A study of Chlorocebus sabaeus with 3 samples.

Results

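Of 6 non-keratin genes proposed for stem and progenitor cells of the limbus, ABCG2, SOX9, CEBPD, BMI1, HOPX, and TNFRSF19, the array table gave values for 5. They were read from every probe set whose only gene symbol was one of these genes, which gave 11 probe sets of the 54675 on the array. ABCG2 had 1 probe set, SOX9 and CEBPD had 2 each, and HOPX and TNFRSF19 had 3 each. The only probe set of BMI1 is also listed under a readthrough transcript with the neighboring gene, so no value is given for BMI1. As deposited, the brightest probe sets of HOPX and TNFRSF19 were highest in the limbus, but the other HOPX probe sets had low values and were lowest there. ABCG2 and SOX9 were highest in the conjunctiva and lowest in the cornea, and CEBPD differed by less than 2-fold between the tissues. After scaling to the hybridization controls of the arrays, CEBPD passed 2-fold and 1 of the 2 SOX9 probe sets was highest in the limbus.

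In the vervet monkey (Chlorocebus sabaeus), total RNA from limbus, cornea, and conjunctiva was amplified in 2 rounds and hybridized to human U133 Plus 2.0 arrays, with 1 array per tissue and 3 in all. No treatment is named for the animals, their ages are given only as a range for the study, and all tissues were taken from the same eye. The cornea sample was the central epithelium with the upper part of the stroma, the limbus sample was the narrow rim of epithelium with the stroma beneath it, and the conjunctiva sample included the underlying Tenon tissue. Each value therefore came from a mixture of epithelial and stromal cells, to which vascular and immune cells can add in shares that differ between the tissues. Fewer cells of a type cannot be told apart from less RNA per cell. Without a second array of any tissue, differences have no error estimate, and p-values were not computed. The number of arrays limits the precision.

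The limbus holds the cells that renew the corneal epithelium, and no single gene marks them. The candidates have different roles. ABCG2 is a transporter of the plasma membrane that pumps dyes out of cells and so produces the side population, a fraction with stem cell properties. SOX9 is an HMG-box transcription factor of progenitors in hair follicle, gut, and cartilage. CEBPD is a leucine zipper transcription factor linked to growth arrest and the acute phase response. BMI1 is a subunit of Polycomb repressive complex 1, which silences the INK4 cell cycle inhibitors. HOPX is a small homeodomain protein that does not bind DNA and acts through serum response factor and histone deacetylases. TNFRSF19, also called TROY, is a receptor of the tumor necrosis factor family found on epithelial progenitors.

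The values are RMA intensities on a linear scale, and the median over all probe sets was 49.0 (limbus), 48.8 (cornea), and 50.7 (conjunctiva). Probe sets with values near or under these medians are called dim here, since their ratios are uncertain. The tissue labels fitted their markers. KRT12, the keratin of corneal epithelium, was at 8068 (cornea), 2633 (limbus), and 54.3 (conjunctiva), and the goblet cell mucin MUC5AC was at 102, 127, and 1618, in the same order. The GAPDH control read at its 3′ end exceeded that at its 5′ end by 3.12-fold to 4.58-fold on the arrays, and for the ACTB control this was 10.3-fold to 11.8-fold. The hybridization controls averaged 1836 (limbus), 3149 (cornea), and 2687 (conjunctiva). Dividing each array by its controls would shift all log2 ratios of limbus over cornea by 0.78 and of limbus over conjunctiva by 0.55.

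By the selection rule of the study, a tissue was credited with a probe set if its value there exceeded both of the others by 2-fold or more, and such probe sets are called counted here. Of the 11 probe sets, 2 were counted for the limbus, 1 each of HOPX and TNFRSF19. Over the whole array the share counted for the limbus was 0.355%. None of the 11 was counted for the cornea, where the share was 1.32%, or for the conjunctiva, where it was 1.1%. Taken pair by pair, the limbus exceeded the cornea by 2-fold or more in 5 of the 11, compared with 2.68% of all probe sets, and exceeded the conjunctiva in 2, compared with 1.9%. The conjunctiva exceeded the cornea in 4 of the 11, compared with 3.79%. In none of the 11 did the cornea exceed the limbus (1.95% of all) or the conjunctiva (3.89%) to this extent, nor did the conjunctiva exceed the limbus (1.67%). These genes were chosen with results of these arrays known, so the counts are a description. Of the 11 probe sets, 6 reached 100 in some tissue, at least 1 for each of the 5 genes, and all of the 2-fold differences lay in these.

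**Figure D1:**
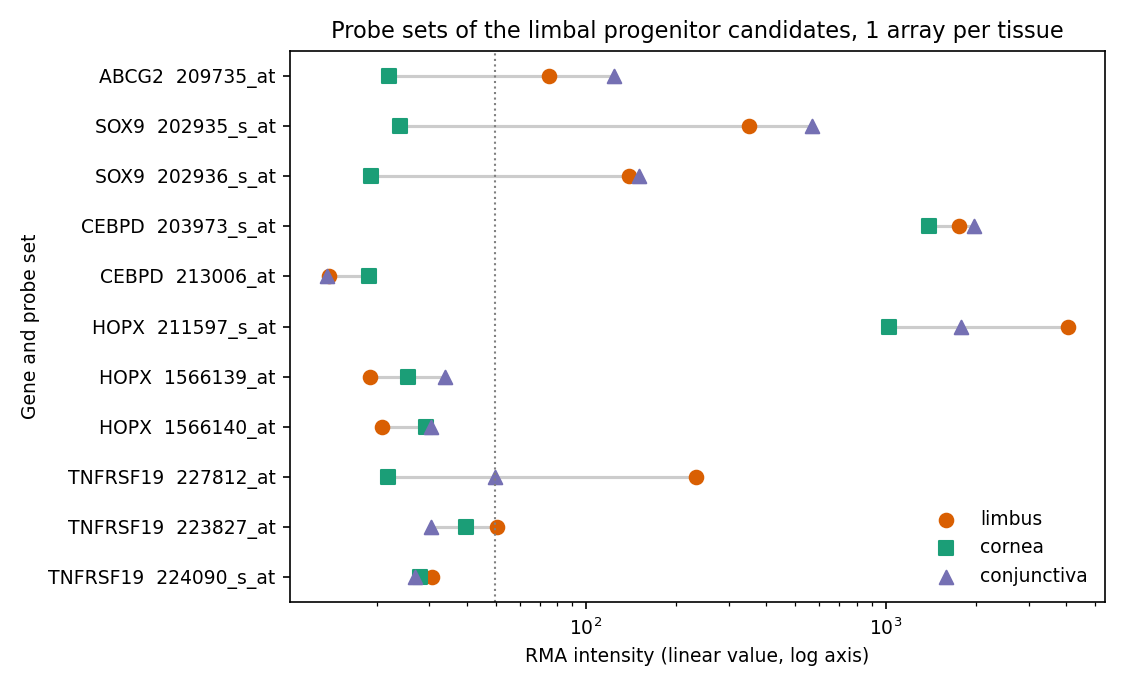
RMA intensity (linear value on a log axis) of each of the 11 probe sets in limbus (circles), cornea (squares), and conjunctiva (triangles), with 1 array per tissue; the grey line joins the lowest and the highest tissue and the dotted line is the mean of the 3 array medians. The brightest probe set of HOPX runs from 1024 in the cornea to 4049 in the limbus and that of SOX9 from 23.9 in the cornea to 566 in the conjunctiva, while the other HOPX and TNFRSF19 probe sets stay at or under 50.4.

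Because replicate arrays were absent, probe sets of the same gene were used to show how far 2 readings of a gene can differ. Over the 3918 genes with at least 2 probe sets that reached 100, the log2 ratio of limbus over cornea differed between the brightest pair by a median of 0.35, and by up to 0.95 in 90% of the genes. For limbus over conjunctiva the median difference was 0.33 and 90% of the genes were within 0.92. These are differences between probe sets on the same arrays and do not include the spread between animals or dissections.

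HOPX had a value of 4049 (limbus), 1024 (cornea), and 1789 (conjunctiva) on its brightest probe set, 211597_s_at. The limbus was highest and the cornea lowest. The limbus exceeded the cornea 3.95-fold and the conjunctiva 2.26-fold, with log2 ratios of 1.98 and 1.18. For HOPX only the brightest probe set reached 100. Over the 3570 genes whose second brightest probe set was likewise under 100, 90% differed by at most 1.13 (limbus over cornea). For limbus over conjunctiva, 90% differed by at most 1.07. Both HOPX ratios were larger than this, but such differences do not include the spread between animals or dissections. The HOPX probe sets themselves disagreed on the direction of both ratios. The average of both ratios was 3.11, which ranked 54 of 110 among the named probe sets that reached 100 and were counted for the limbus. The other HOPX probe sets, 1566139_at and 1566140_at, carry the same accession as each other and a different one from the bright probe set. They were dim, and in both the limbus was the lowest tissue. The first was at 19.0 (limbus), 25.5 (cornea), and 34.0 (conjunctiva), and the second was at 20.9, 29.3, and 30.3, in the same order. On the arrays, the limbal pattern of HOPX therefore rested on 1 probe set, and it was past 2-fold under each scaling that was tried. The paper reports that QRT-PCR of this gene, there called HOP, matched its array levels. In human tissue it describes HOP protein in the limbus, much less of it in the conjunctiva, and none in the cornea.

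TNFRSF19 had a value of 234 (limbus), 21.8 (cornea), and 49.7 (conjunctiva) on probe set 227812_at. The cornea was under the median of its array and the conjunctiva was near it, so the size of the ratios rests on low values. The limbus exceeded the cornea 10.7-fold and the conjunctiva 4.71-fold, and the average ratio of 7.72 ranked 9 of the same 110. With a pseudocount of 32 the log2 ratio of limbus over cornea was 2.30 in place of 3.42 and that of limbus over conjunctiva was 1.70 in place of 2.23. The other TNFRSF19 probe sets were also highest in the limbus, by small margins as deposited. On 223827_at the values were 50.4 (limbus), 39.6 (cornea), and 30.4 (conjunctiva), and on 224090_s_at they were 30.5, 28.0, and 26.9. All 3 TNFRSF19 probe sets placed the limbus first, but the order of the cornea and the conjunctiva differed between the bright probe set and the dim ones.

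Probe sets under 100 in every tissue, a wider class than the dim ones above, were also examined for other limbal genes. There were 63 genes whose brightest probe set reached 100 and was counted for the limbus, and 32 of them had at least 1 such probe set. Of these 56 probe sets under 100, which include the 2 of HOPX and the 2 of TNFRSF19, 26 (46.4%) were highest in the limbus, and 3 were themselves counted for it. Of all probe sets on the array, bright ones included, 26.8% were highest in the limbus, and 24.0% of those that reached 100.

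SOX9 had a value of 351 (limbus), 23.9 (cornea), and 566 (conjunctiva) on its brighter probe set, 202935_s_at. The cornea was far below both other tissues. The limbus exceeded it 14.7-fold and the conjunctiva 23.6-fold. The second probe set, 202936_s_at, was at 140 (limbus), 19.2 (cornea), and 151 (conjunctiva). It gave the same order of tissues, with the limbus 7.28-fold and the conjunctiva 7.85-fold above the cornea. The log2 ratios of limbus over cornea of the 2 probe sets differed by 1.01, past the 0.95 that held 90% of genes. The low corneal value was still read by both SOX9 probe sets, both times under the array median. Because of these low values the size of the ratios is uncertain, and with a pseudocount of 32 the log2 ratio of limbus over cornea was 2.77 in place of 3.87 on the first probe set and 1.75 in place of 2.86 on the second. The step from the limbus to the conjunctiva was smaller and depended on the probe set. The conjunctiva was 1.61-fold above the limbus on the first and 1.08-fold on the second, both within the range in which probe sets of a gene commonly differ. When the arrays were scaled to their hybridization controls, the second probe set was highest in the limbus, with a log2 ratio of limbus over conjunctiva of 0.44, while the first remained highest in the conjunctiva at -0.14.

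ABCG2 had a value of 75.0 (limbus), 22.0 (cornea), and 124 (conjunctiva) on its single probe set, 209735_at. The conjunctiva was highest and the only tissue above 100. It exceeded the limbus 1.66-fold and the cornea 5.63-fold, and the limbus exceeded the cornea 3.40-fold. The cornea was under its array median, and with a pseudocount of 32 the log2 ratio of limbus over cornea fell from 1.77 to 0.99, just under 2-fold. The log2 ratio of limbus over conjunctiva was -0.73 as deposited and -0.18 after scaling to the hybridization controls, so the conjunctiva stayed highest while the gap to the limbus nearly closed. No second probe set was at hand to check these values.

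CEBPD had a value of 1752 (limbus), 1396 (cornea), and 1976 (conjunctiva) on its bright probe set, 203973_s_at. The highest tissue was 1.41-fold above the lowest. The limbus exceeded the cornea 1.25-fold, and the conjunctiva exceeded the limbus 1.13-fold. Both steps were smaller than the median difference between probe sets of a gene. The order was not stable, since with quantile normalization the limbus was highest, at a log2 ratio of 0.05 over the conjunctiva, and with hybridization controls it was highest at 0.38. The latter scaling also brought the log2 ratio of limbus over cornea from 0.33 to 1.11, past 2-fold. The second CEBPD probe set, 213006_at, was dim, at 13.9 (limbus), 18.9 (cornea), and 13.7 (conjunctiva), and gave no usable order.

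**Figure D2:**
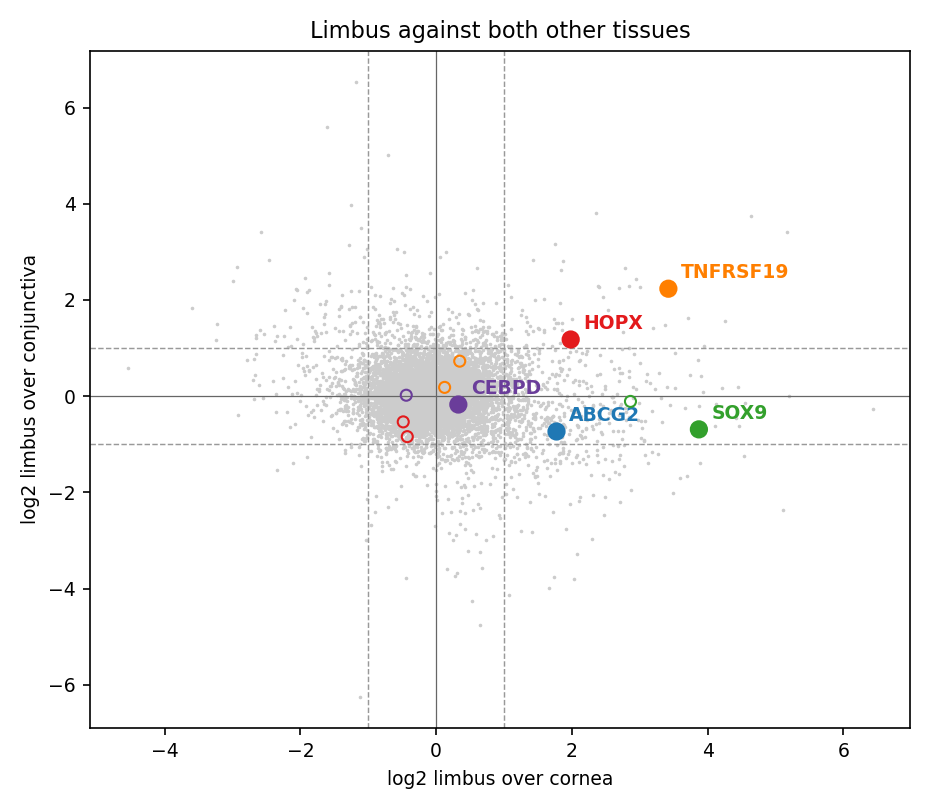
Log2 ratio of limbus over cornea (horizontal) against log2 ratio of limbus over conjunctiva (vertical) for the brightest probe set of each candidate (filled) and its other probe sets (open), over all other genes with a value of at least 100 (grey); dashed lines mark 2-fold. HOPX (1.98 and 1.18) and TNFRSF19 (3.42 and 2.23) lie beyond 2-fold on both axes, ABCG2 and SOX9 on the horizontal axis only, and CEBPD on neither.

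**Figure D3:**
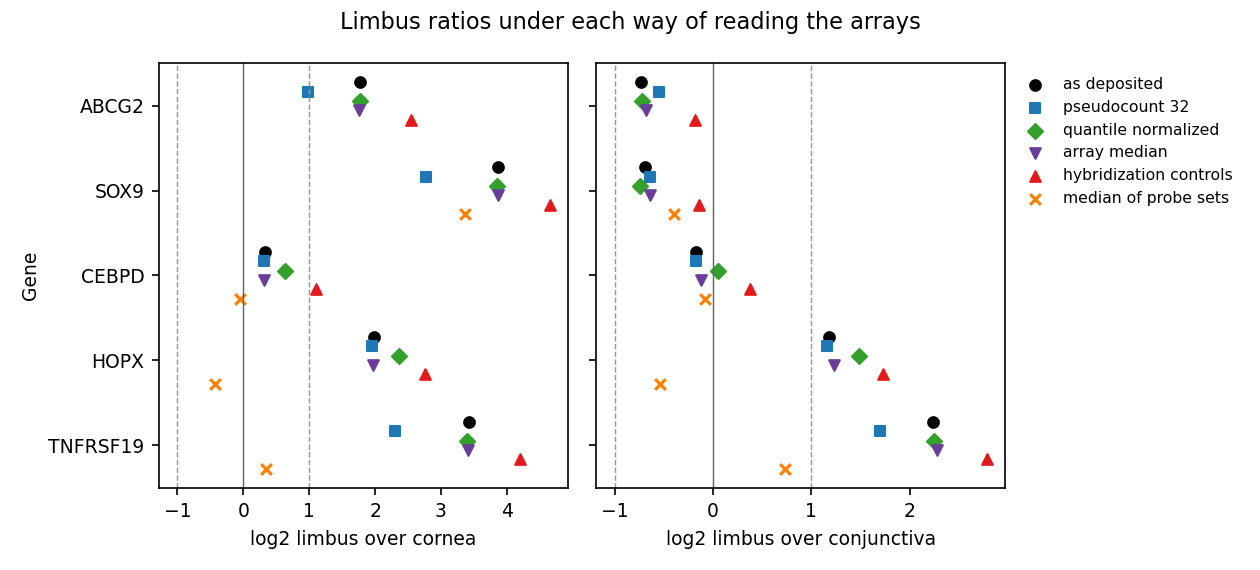
Log2 ratio of limbus over cornea (left) and of limbus over conjunctiva (right) for the brightest probe set of each gene as deposited, with a pseudocount of 32, and with each scaling of the arrays; crosses show the median of all probe sets of genes with more than 1, and dashed lines mark 2-fold. HOPX and TNFRSF19 stay beyond 2-fold in both panels under each scaling and leave it with the median of probe sets, while CEBPD crosses 0 on the right, from -0.17 as deposited to 0.38 with the hybridization controls.

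ABCG2 and SOX9 shared a layout in which the limbus lay between the cornea and the conjunctiva. On the linear way from the corneal to the conjunctival value, the limbus stood at 51.9% for ABCG2, at 60.3% for the brighter SOX9 probe set, and at 91.7% for the other. Over the 1441 probe sets that reached 100 in the conjunctiva and exceeded the cornea there by 2-fold or more, the median position was 42.2% and the middle range, between the lower and the upper quartile, was 22.9% to 67.6%. ABCG2 and the brighter SOX9 probe set were thus inside the middle range of all such probe sets and the second SOX9 probe set was above it. HOPX and TNFRSF19 had no such position, since their limbus value exceeded both ends.

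Genes of other cells of these samples were set beside them. Among basal epithelial keratins, the limbus stood at 82.8% for KRT14, which was at 4580 (limbus), 53.1 (cornea), and 5521 (conjunctiva). It stood at 89.2% for KRT15 and at 43.9% for KRT19. Other genes of the basal list, KRT5 (6129, 7264, and 3293, in the same order) and ITGB4 (224, 275, and 188), were highest in the cornea. They are therefore not among these positions. Of the 10 endothelial genes, all were lowest in the cornea, 6 were highest in the conjunctiva and 4 in the limbus, and their summed level was 1900 (limbus), 669 (cornea), and 2689 (conjunctiva). The 6 endothelial genes with a 2-fold step had positions between 25.3% (ROBO4) and 151% (EMCN). The 9 leukocyte genes measured summed to 887, 648, and 1587, and 9 of 9 were highest in the conjunctiva. The 3 leukocyte genes with a 2-fold step had positions between 16.2% and 25.8%, below those of ABCG2 and SOX9. The 8 smooth muscle and pericyte genes summed to 1537, 674, and 3683, with 5 highest in the conjunctiva. Of the 4 with a 2-fold step, CNN1 (-3.73%), MYH11 (3.16%), and ACTA2 (20.01%) were nearer the cornea and RGS5 was at 106%. The 6 goblet cell genes with a 2-fold step lay between -17.9% and 9.33%, that is, near the cornea. No marker of these lists was at 0 on any array, as RMA values do not reach 0. The 5 basal epithelial genes measured summed to 16382 (limbus), 8513 (cornea), and 16795 (conjunctiva). The summed levels of this list and of the endothelial, leukocyte, and muscle lists were, like ABCG2 and SOX9, lowest in the cornea and highest in the conjunctiva. Positions cover only genes with the 2-fold step and 100 or more in the conjunctiva, 3 of 9 leukocyte and 4 of 8 muscle genes. Leukocyte genes left out varied. CD14 was at 157 (limbus), 97.7 (cornea), and 186 (conjunctiva), with its limbus nearer the conjunctiva, while CD3E was lowest in the limbus at 54.4, 88.5, and 101. The part of any of these cell types in the values of ABCG2 and SOX9 was not tested.

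**Figure D4:**
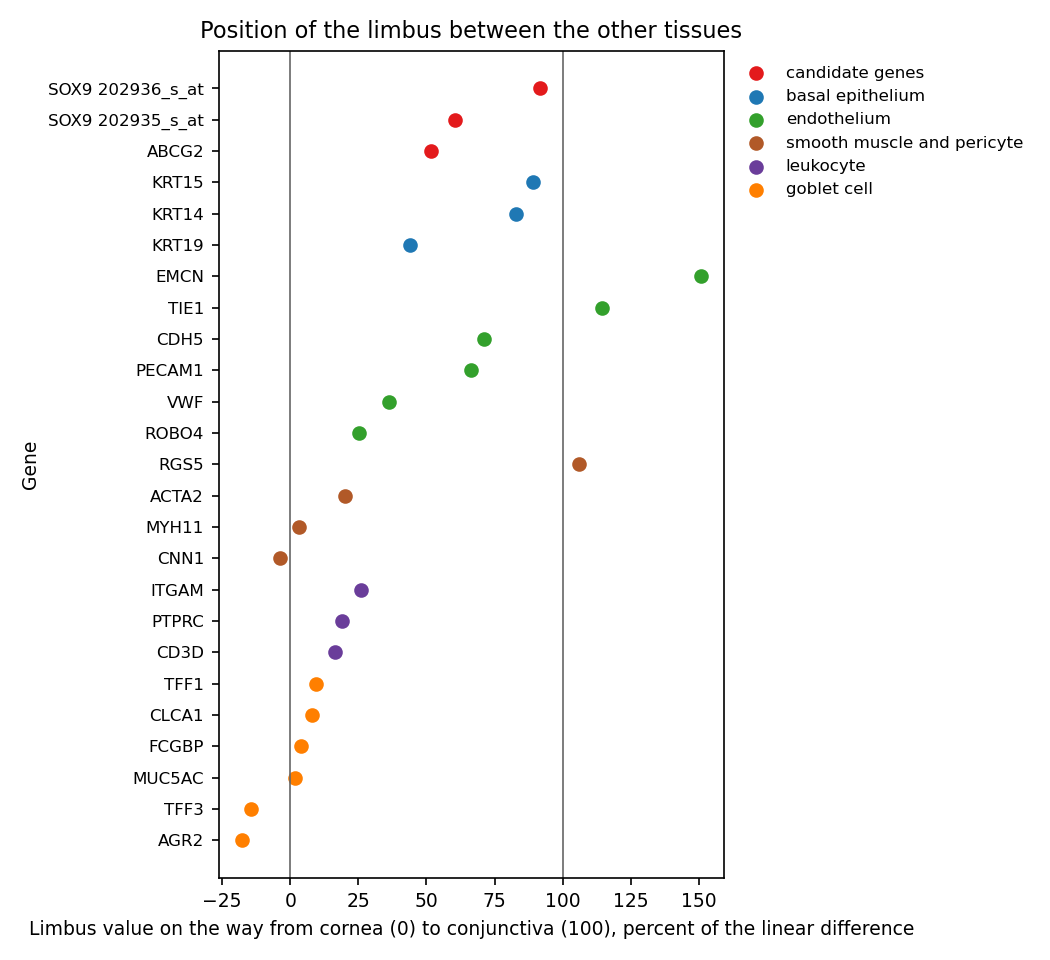
Position of the limbus value between the cornea (0) and the conjunctiva (100), in percent of the linear difference, for ABCG2 and both SOX9 probe sets and for those markers of 5 cell types with the same 2-fold step and a conjunctival value of 100 or more. ABCG2 is at 51.9% and SOX9 at 60.3% and 91.7%. The 3 basal keratins shown run from 43.9% to 89.2% and the 6 endothelial genes from 25.3% to 151%. The 6 goblet cell genes reach at most 9.33% and the 3 leukocyte genes at most 25.8%. The 4 smooth muscle and pericyte genes run from -3.73% to 106%. List genes without this step, among them the basal genes KRT5 and ITGB4, are not shown.

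Most melanocyte genes were, like HOPX and TNFRSF19, highest in the limbus. Of 7 melanocyte genes measured, 6 were highest in the limbus, and their summed level was 2068 (limbus), 604 (cornea), and 1047 (conjunctiva). The melanosomal enzyme TYRP1 was at 290, 11.7, and 21.6, and MITF, the master transcription factor of melanocytes, was at 375, 106, and 174, in the same order. The part of melanocytes in the limbal values of HOPX and TNFRSF19 was not tested. Of 6 Schwann cell and nerve genes measured, 1 was highest in the limbus, and their sums were 574, 527, and 977. Of 7 keratocyte genes, none was highest in the limbus, and 5 were highest in the cornea.

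For each candidate the genes with the most similar pattern were sought among the 11002 other genes with a value of at least 100. The distance was the larger of the differences in the log2 ratios of limbus over cornea and limbus over conjunctiva, so it rests on 3 tissues only, and most of the distances are smaller than the median difference of 0.35 in limbus over cornea between probe sets of a gene. The order of the nearest genes is therefore uncertain, most of all for TNFRSF19, SOX9, and ABCG2, whose ratios rest on dim values. Nearest to HOPX were the membrane protein TMEM98 at a distance of 0.08, the glutathione transferase GSTA3 at 0.10, and MITF at 0.16. TMEM98 was at 1113 (limbus), 283 (cornea), and 519 (conjunctiva). Nearest to TNFRSF19 were the cationic amino acid transporter SLC7A2 at a distance of 0.42, the matrix glycoprotein TNC at 0.48, and the neuroendocrine granule protein SCG2 at 0.58. SLC7A2 was at 918, 114, and 189 in the same tissue order. Nearest to SOX9 were RUNX2, a transcription factor of bone, at 0.01, the potassium channel KCNMA1 at 0.04, and the mannosidase MAN1A1 at 0.24. RUNX2 was at 443, 30.3, and 708. Nearest to ABCG2 were the matrix proteoglycan SPOCK2 at 0.04, the protease ADAMTS5 at 0.05, and the corepressor RUNX1T1 at 0.06. SPOCK2 was at 237, 70.2, and 403. Nearest to CEBPD were EZH1, XIRP1, and KRT83, at 0.01 to 0.02.

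Families and partners of the candidates were read next, 1 probe set per gene, with the candidates left out. Among all 19775 genes, the limbus exceeded the cornea by 2-fold or more in 4.06% and the cornea exceeded the limbus in 2.51%. Against the conjunctiva, the limbus was the higher tissue by this margin in 2.62% and the lower in 2.31%. The median log2 ratio of all genes was -0.05 for limbus over cornea and -0.04 for limbus over conjunctiva.

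Of 13 ABC efflux transporters measured, 1 was 2-fold up in the limbus against the cornea, 1 was 2-fold down, and none was 2-fold apart from the conjunctiva. The median log2 ratios were -0.04 and -0.17. ABCC4, an exporter of cyclic nucleotides and prostaglandins, was at 250 (limbus), 40.9 (cornea), and 255 (conjunctiva). It had a low cornea like ABCG2. ABCB1, the P-glycoprotein efflux pump, went the other way, at 51.9, 248, and 39.8. ABCB5, itself proposed as a limbal stem cell gene, had all values under 100, at 77.6, 58.1, and 87.4.

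Of 17 other SOX genes, 1 was 2-fold up in the limbus against the cornea, 2 were 2-fold up against the conjunctiva and 1 was 2-fold down. The median log2 ratios were 0.18 and 0.20. SOX5 and SOX6, which act with SOX9 in cartilage, had opposite patterns. SOX5 was at 55.6 (limbus), 32.04 (cornea), and 197 (conjunctiva), and a second probe set gave 51.4, 21.3, and 115. SOX6 was at 503, 535, and 85.9, and its other probe sets that reached 100 gave the same low conjunctiva. The cartilage genes COL2A1 and COL9A1 reached at most 29.7 and 58.4, while ACAN was highest in the conjunctiva at 201. None of the 6 cartilage genes was highest in the limbus.

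Of 15 genes of the C/EBP family and of the interleukin 6 route to STAT3, an inducer of CEBPD, 3 were 2-fold up in the limbus against the cornea, and 1 was 2-fold down against the conjunctiva. The median log2 ratios were 0.06 and -0.33. CEBPB, which acts with CEBPD in acute phase responses, was at 687 (limbus), 264 (cornea), and 1282 (conjunctiva). Its highest tissue exceeded its lowest 4.86-fold, compared with 1.41-fold for CEBPD. The receptors LIFR (189, 68.6, and 602) and OSMR (282, 80.5, and 380) had the same order. STAT3 was at 1114, 945, and 1055 and differed little.

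BMI1 itself has no value here, but its complex was measured. None of 15 other Polycomb repressive complex 1 genes was 2-fold apart between the limbus and either tissue, and the median log2 ratios were -0.04 and -0.07. RING1, a catalytic subunit, was at 724 (limbus), 634 (cornea), and 775 (conjunctiva). Of 9 genes of Polycomb repressive complex 2 and the INK4 locus, EZH2, the histone methyltransferase, was 2.04-fold up in the limbus against the conjunctiva, at 423, 562, and 207. CDKN2A, the INK4 gene that BMI1 represses, was at 97.9, 127, and 107.

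Of 12 genes measured among HOPX partners and targets of serum response factor, 4 were 2-fold up in the limbus against the cornea, and 6 were 2-fold down against the conjunctiva. The median log2 ratios were 0.34 and -1.04. Those that were lower than in the conjunctiva were contractile genes with the coactivator MYOCD. ACTA2, smooth muscle actin, was at 431 (limbus), 76.4 (cornea), and 1847 (conjunctiva), and TPM2 was at 224, 104, and 712. TAGLN was at 265, 45.5, and 878 on its brightest probe set, while another was highest in the cornea at 218. ACTG2 (122, 236, and 773) and CNN1 (65.2, 71.3, and 234) were lowest in the limbus. None of these contractile genes was highest in the limbus on its brightest probe set. The factor itself, SRF, was at 363 (limbus), 202 (cornea), and 318 (conjunctiva), and HDAC2 was at 712, 875, and 713.

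Of 16 relatives and adaptors of TNFRSF19 measured, 2 were 2-fold up in the limbus against the cornea and none was 2-fold apart from the conjunctiva. The median log2 ratios were 0.15 and 0.04. TNFRSF21, a death receptor, was at 1589 (limbus), 677 (cornea), and 1942 (conjunctiva), but its second probe set was highest in the limbus at 256, 75.2, and 164. The adaptor TRAF5 was at 130, 50.9, and 195. The ectodysplasin receptors EDAR (199, 216, and 181) and EDA2R (151, 126, and 140) were nearly level, and the nerve growth factor receptor NGFR was dim in all tissues. LGR5, a marker of progenitors of the gut and hair follicle, was dim at 35.5, 36.8, and 43.8.

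Among 30 other non-keratin genes proposed for limbal stem cells, 6 were 2-fold up in the limbus against the cornea and 5 were 2-fold down. Against the conjunctiva 2 were 2-fold up and none was 2-fold down. The median log2 ratios were -0.07 and 0.11. CDH3, P-cadherin, was the only one of them counted for the limbus, at 904 (limbus), 302 (cornea), and 427 (conjunctiva). CD200 was also highest in the limbus, at 467, 101, and 385, and a second probe set gave 446, 52.3, and 243. ITGA9, an integrin subunit, had the layout of SOX9 and ABCG2, at 165, 24.8, and 185. Another 4 were counted for the cornea, N-cadherin CDH2 (90.3, 237, and 52.3), the integrin subunit ITGA6 (360, 1297, and 451), the transferrin receptor TFRC (772, 2703, and 350), and the factor KLF4 (3770, 10012, and 3006).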

How the data were processed

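The authors hybridized amplified RNA of 1 sample each of limbus, cornea, and conjunctiva to human arrays, read probe intensities with the scanner software, and applied justRMA to each array along with a constant set of reference arrays; the version is not given in the sources used here. The deposited intensity values are linear RMA values and were used without further normalization. Groups were taken from the sample labels. The table holds 0 columns of other samples.

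In the array annotation used for names, 41097 probe sets had 1 symbol, 1801 had several, and 11777 were not named. List genes with no probe set under the symbol used, such as MKL1 and MKL2, were not measured. Where 1 probe set stands for a gene, it is the one whose mean log2 value was highest. The members and the 8 pathway and 10 cell type lists were chosen with earlier results of these data known. Genes were named from a pathway list when they reached 100 in a tissue and the limbus was at least 2-fold from the cornea or the conjunctiva (at most 6 a list, largest ratio first), together with the 3 genes most like each member. Partners, markers, and other list genes named as background were chosen after their values were seen. No test was made, since each tissue had 1 array. The code of the selection rule and the likeness measure was checked on simulated data with planted changes. The simulated noise was smaller than the differences seen between probe sets of a gene, so this check does not speak to the accuracy of these arrays. Alternatives were a pseudocount of 32, 3 other scalings of the arrays, another choice of probe set, thresholds of 1.5 and 3, and a minimum of 100. Python 3.11.15, numpy 2.4.6, pandas 2.3.3, and matplotlib 3.10.9 were used.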

Additional observations from a re-analysis of the deposited data

How the results depend on the processing

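No paired analysis was possible because each tissue had 1 array. The counts of 2-fold probe sets stayed within 1.5 times under each scaling, the pseudocount, and the minimum of 100. The largest moves came with the hybridization controls. There the count for the limbus over both tissues rose from 2 to 3, since 223827_at of TNFRSF19 was then counted, with log2 ratios of 1.13 and 1.28. The count apart between the limbus and the conjunctiva also rose from 2 to 3, and that between the limbus and the cornea from 5 to 7. With a threshold of 3, the count for the limbus over both tissues fell from 2 to 1, and the count apart between the limbus and the conjunctiva from 2 to 1. With a threshold of 1.5, the latter rose to 6, and the count for the conjunctiva over both rose from 0 to 2. When a gene was read as the median of its probe sets, the log2 ratios of HOPX turned to -0.43 for limbus over cornea and -0.53 for limbus over conjunctiva, since 2 of its 3 probe sets are dim, and that of TNFRSF19 for cornea over conjunctiva turned to 0.058. The same median left TNFRSF19 at 0.35 for limbus over cornea and 0.73 for limbus over conjunctiva. Scaling to the hybridization controls brought CEBPD to 1.11 for limbus over cornea and HOPX to -1.03 for cornea over conjunctiva, both past 2-fold. Of 84 ratios recomputed, 75 stayed on their side of 2-fold. This total includes 12 that could not change, since the probe set with the highest single value was the one already used. With the median of the probe sets, 5 of 12 changed. Dim values limit the ratios of TNFRSF19, SOX9, and ABCG2 over the cornea, and the single array per tissue limits all of them.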
